A study of Mus musculus with 18 samples.

Results

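The genes described here encode 38 proteins of the lysosome: glycosidases, sulfatases, lipid hydrolases and lipid carriers, cathepsins and other proteases, membrane proteins, progranulin and the transcription factor Tfeb. They were taken by gene symbol from a table of 32699 symbols, and the counts of all transcript models of a symbol were summed. A symbol was set aside where it had under 10 counts in more than 9 of the 18 libraries, which left 32 genes. RNA was sequenced from PyMT-BO1 cells, a luminal B-like mouse breast cancer line of the C57BL/6 background. In all cells the integrin β3 gene had been knocked out, and a retroviral vector then gave them functional human integrin β3 (hβ3), a mutant integrin β3 that is deficient in signalling (Δβ3) or nothing (the empty vector, pMx). Each line was grown on culture plates and received 10 nM docetaxel, a taxane that stabilises microtubules, or its vehicle DMSO for 24 h. There were 3 cultures in each of the 6 groups: hβ3 docetaxel, hβ3 DMSO, Δβ3 docetaxel, Δβ3 DMSO, pMx docetaxel and pMx DMSO. The labels do not say whether a line is 1 clone.

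Lysosomes are acidic organelles in which soluble hydrolases break down glycans, sulfated polymers, lipids and proteins that arrive by endocytosis or autophagy. Most soluble hydrolases carry mannose 6-phosphate, which receptors in the Golgi use to sort them, and a proton pump (the V-ATPase) acidifies the lumen. Many of these genes are known targets of Tfeb and its relatives Tfe3 and Mitf, which bind a palindromic DNA element built around CACGTG. In breast cancer, cathepsins B and L are known for degrading matrix outside the cell when they are secreted.

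Libraries held between 7.97 and 18.96 times 1e6 counts, of which the ribosomal precursor Rn45s took 6.59% to 41.5%. Levels are given as counts per 1e6 of the scaled library size (CPM). The Itgb3 symbol had 1164 to 1841 counts in hβ3 cultures and 212 to 1821 counts in Δβ3 cultures, against 5 to 20 counts in pMx cultures. The gene given back in hβ3 is human and reads were mapped to the mouse genome, so these counts separate cultures with and without a construct but need not measure its level. Of 12 luminal markers, 3 reached 1 CPM. Krt8 had 1089 to 1907 CPM outside the 2 libraries named next, while Epcam did not pass 0.1 CPM. Transcripts of 28 heart muscle genes summed to 56275 CPM in Δβ3 docetaxel culture 2 and to 6818 CPM in Δβ3 DMSO culture 1. The other docetaxel libraries had 317 to 2859 CPM and the other DMSO libraries 608 to 2588 CPM. The highest of these were pMx docetaxel culture 1 (2859 CPM) and pMx DMSO cultures 1 and 2 (2588 and 1779 CPM). The other libraries were thus not free of such transcripts, and Ankrd1, 1 of the 28 genes, had 41.9 to 832 CPM in them. Because of the Δβ3 values, counts of called genes are given over 18 libraries and again over 16 libraries. The 16 leave out Δβ3 docetaxel culture 2 and Δβ3 DMSO culture 1. The change of a single gene is over 18 libraries unless 16 is stated.

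Among the 32 lysosomal genes, Δβ3 docetaxel culture 2 lay below both sister cultures for 24 and above both for 7. Ctsc, the cathepsin that activates granule proteases of leukocytes, had 70.6 CPM there, against 0.312 and 0.807 CPM in its sisters. Smpd1, acid sphingomyelinase, had 129 CPM there and 44.8 and 43.9 CPM in its sisters. Δβ3 DMSO culture 1 lay below both sisters for 20 genes and above both for 11. Such counts over all tested genes are not given here, so these are not read as a trait of lysosomal genes. The 12 luminal markers summed to 1191 CPM in Δβ3 docetaxel culture 2, against 3236 and 3146 CPM in its sisters. Nearly all of the 1191 CPM came from the keratins Krt8 (646 CPM) and Krt18 (544 CPM). In Δβ3 DMSO culture 1 the luminal sum was 3270.5 CPM, against 3417 and 3050 CPM in its sisters. The part that the heart transcripts had in these values was not tested.

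**Figure D1:**
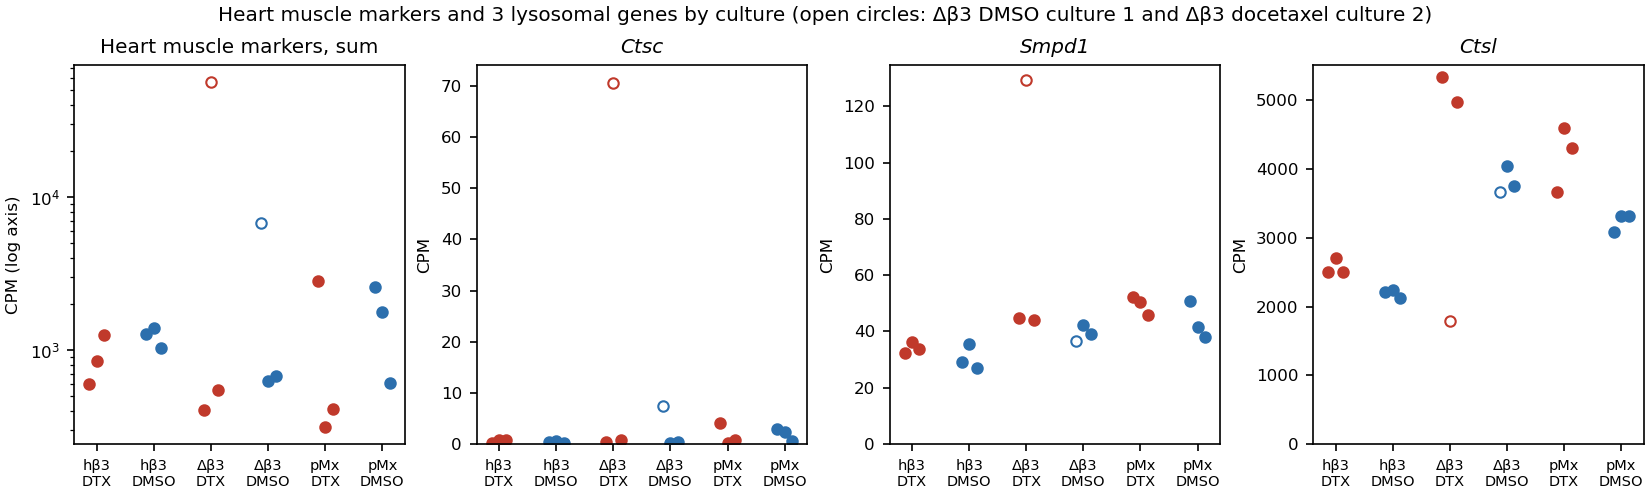
Summed heart muscle markers (CPM, log axis) and 3 lysosomal genes (CPM, linear axes) in each of the 18 cultures. Each point is 1 culture, DTX is docetaxel, and open circles mark Δβ3 docetaxel culture 2, which had 56275 CPM of heart muscle markers and 70.6 CPM of Ctsc, and Δβ3 DMSO culture 1.

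The genes set aside were Gaa, Idua, Psap, Lipa, Ctsd and Ctss. Idua, Lipa and Ctss had 0 counts in every library and Ctsd had at most 2 counts. Psap, which encodes the precursor of the saposins, lay just outside the rule with 0 to 16 counts and 13 libraries under 10. Ctsc with 9 such libraries and Ctsa with 8 lay just inside. All 6 genes set aside have several transcript models in the table, as do 15 of the 32 kept. The median count of a kept gene was 1251.5 for the 17 genes with 1 model and 49.0 for those with several, so a low count does not show that a gene was silent. Among the 17 single-model genes, the level per kilobase in pMx DMSO was 923 ± 38.8 CPM per kb (SD, n = 3) for Ctsl, the cysteine protease cathepsin L. Grn (progranulin) followed with 375 ± 21.8 CPM per kb and Ctsb (cathepsin B) with 360 ± 14.6 CPM per kb, which do not differ beyond their spread. Laptm4a, a membrane protein of late endosomes and lysosomes, had 302 ± 4.89 CPM per kb. Gm2a, the activator protein that presents GM2 ganglioside to hexosaminidase, was lowest with 5.43 ± 0.729 CPM per kb.

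The first comparison asked what docetaxel did to these genes, as the mean of the 3 lines. Over 18 libraries 11 of the 32 genes rose in docetaxel and none fell, and Manba, Gm2a and Gla had the smallest adjusted p. Over all 12145 tested genes, 7.9% were called higher and 7.67% lower. Calls rest on edgeR's two-sided quasi-likelihood test with the Benjamini-Hochberg adjusted p under 0.05. Over 16 libraries 22 of 32 were higher and none lower, beside 15.8% higher and 14.3% lower of 12356 genes. The median log2 change of the 32 genes was 0.31 in both fits, against 0.06 for all tested genes over 18 libraries and 0.02 over 16. Over 16 libraries the change of all tested genes crossed 0 between percentiles 46.5 and 47.5. The change was above 0 for 31 of the 32 lysosomal genes in both fits, and these genes share the same libraries. The exception was Cd63, a tetraspanin of late endosomes, at -0.31 ± 0.23 (SE; adjusted p = 0.422). All tested genes include many with other read depths than these 32. In bulk RNA, more cells of a type and more RNA per cell cannot be told apart.

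**Figure D2:**
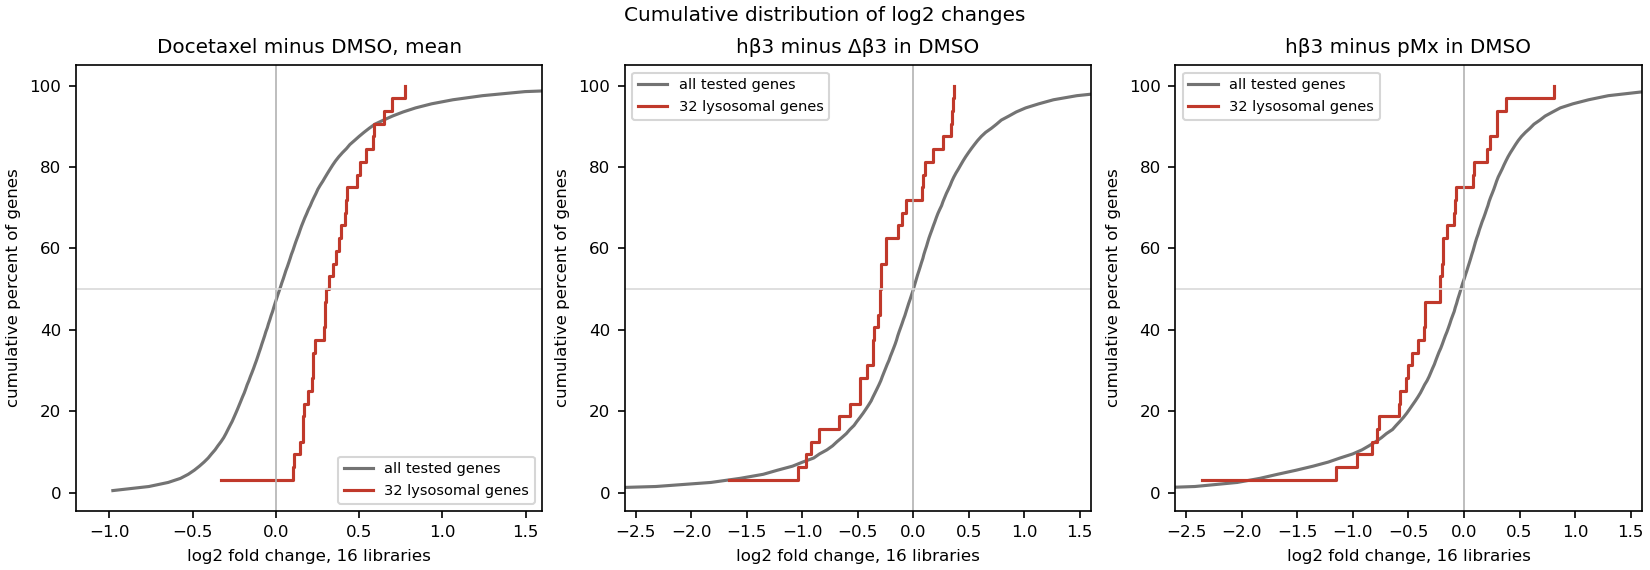
Cumulative percent of genes (y axis) against the log2 fold change over 16 libraries (x axis) for all tested genes (grey) and the 32 lysosomal genes (red). For docetaxel minus DMSO the red curve lies to the right, with medians of 0.31 and 0.02, and for hβ3 minus each other line in DMSO it lies to the left over most of its range.

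Of the 9 glycosidases kept, 4 rose: Gla, Manba, Man2b1 and Fuca1. Manba, the β-mannosidase that removes mannose from glycans (chr3:135485611-135571404, plus strand, mm10), had 24.7, 24.0 and 22.2 CPM in hβ3 docetaxel cultures, against 16.8, 18.3 and 19.0 CPM in hβ3 DMSO cultures. It had 39.0, 35.4 and 30.8 CPM in Δβ3 docetaxel cultures, against 18.7, 23.2 and 20.8 CPM in Δβ3 DMSO cultures. It had 39.0, 35.0 and 35.9 CPM in pMx docetaxel cultures, against 20.6, 21.1 and 19.2 CPM in pMx DMSO cultures. Every docetaxel culture was above every DMSO culture of its line. The genes given by culture were picked by small p in these same libraries, so separation of their cultures is no added evidence. The mean log2 change was 0.66 ± 0.08 (SE; adjusted p = 2.93e-05).

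Gla, α-galactosidase A, which takes galactose from globotriaosylceramide and is deficient in Fabry disease, lies at chrX:134588149-134601125 on the minus strand. It had 62.5, 67.0 and 64.7 CPM in hβ3 docetaxel cultures, against 48.6, 47.9 and 44.0 CPM in hβ3 DMSO cultures. It had 98.2, 69.6 and 82.8 CPM in Δβ3 docetaxel cultures, against 67.6, 60.0 and 59.3 CPM in Δβ3 DMSO cultures. It had 94.1, 86.6 and 85.0 CPM in pMx docetaxel cultures, against 66.2, 62.4 and 56.3 CPM in pMx DMSO cultures. The groups did not overlap in any line, and the closest pair was formed by the 2 Δβ3 cultures rich in heart transcripts, at 69.6 and 67.6 CPM. The mean change was 0.47 ± 0.08 (SE; adjusted p = 0.000358).

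Man2b1, the acid α-mannosidase at chr8:85083270-85098282 on the plus strand, had 98.8 to 113 CPM in hβ3 docetaxel and 74.9 to 82.1 CPM in hβ3 DMSO cultures. It had 116, 117 and 110.3 CPM in Δβ3 docetaxel cultures, against 102, 85.9 and 86.4 CPM in Δβ3 DMSO cultures. In pMx cells it had 105 to 109 CPM in docetaxel and 79.2 to 84.3 CPM in DMSO. It was called between no pair of lines in either treatment, and its mean change was 0.38 ± 0.06 (adjusted p = 4e-04). Fuca1, the α-L-fucosidase, rose by 0.31 ± 0.09 (adjusted p = 0.0282). That call was lost in 11 of the 18 fits that left out 1 library, with adjusted p up to 0.0651 without pMx docetaxel culture 3. Over 16 libraries Hexa (the α subunit of β-hexosaminidase), Galc (galactosylceramidase) and Neu1 (the lysosomal sialidase) were also called, at 0.30 ± 0.05, 0.19 ± 0.06 and 0.16 ± 0.04. Glb1 (acid β-galactosidase) and Naglu (which acts on heparan sulfate) were called in neither fit.

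Of the 4 sulfatases, 1 rose over 18 libraries and 4 over 16. Arsa, arylsulfatase A, which desulfates the myelin lipid sulfatide, lies at chr15:89472476-89477425 on the minus strand. It had 51.2, 54.2 and 55.7 CPM in hβ3 docetaxel cultures, against 41.1, 44.0 and 41.5 CPM in hβ3 DMSO cultures. It had 86.9, 61.7 and 69.5 CPM in Δβ3 docetaxel cultures, against 65.2, 56.8 and 59.6 CPM in Δβ3 DMSO cultures. It had 54.7, 58.7 and 61.7 CPM in pMx docetaxel cultures, against 47.1, 47.8 and 44.2 CPM in pMx DMSO cultures. The groups overlapped in Δβ3 alone, where the lowest docetaxel value and the highest DMSO value came from the cultures rich in heart transcripts. Its mean change was 0.31 ± 0.07 (adjusted p = 0.00804). Arsb, Ids and Sgsh, which act on dermatan or heparan sulfate, rose over 16 libraries by 0.32 ± 0.07, 0.30 ± 0.05 and 0.29 ± 0.05.

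Among 5 lipid hydrolases and carriers, Gm2a alone rose over 18 libraries, and it had the largest change of the genes called. It lies at chr11:55098115-55113029 on the plus strand. It had 21.8, 22.6 and 22.0 CPM in hβ3 docetaxel cultures, against 12.0, 15.1 and 12.3 CPM in hβ3 DMSO cultures. It had 34.9, 30.9 and 33.9 CPM in Δβ3 docetaxel cultures, against 20.2, 20.2 and 16.2 CPM in Δβ3 DMSO cultures. It had 31.3, 36.4 and 38.3 CPM in pMx docetaxel cultures, against 25.7, 19.7 and 24.0 CPM in pMx DMSO cultures. No docetaxel culture overlapped the DMSO cultures of its line. The mean change was 0.73 ± 0.09 (adjusted p = 3.42e-05). Npc2, the soluble cholesterol carrier, and Asah1, acid ceramidase, were added over 16 libraries at 0.36 ± 0.05 and 0.22 ± 0.07. Smpd1 had 0.41 ± 0.17 over 18 libraries (adjusted p = 0.123) and 0.17 ± 0.07 over 16 (adjusted p = 0.0657).

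Among 7 proteases, Ctsb and Tpp1 rose over 18 libraries. Ctsb lies at chr14:63122462-63145923 on the plus strand. It had 1441, 1413 and 1363 CPM in hβ3 docetaxel cultures, against 1002, 1061 and 956 CPM in hβ3 DMSO cultures. It had 2811, 1473 and 2522 CPM in Δβ3 docetaxel cultures, against 1706, 2019 and 1869 CPM in Δβ3 DMSO cultures. It had 2378, 2413 and 2400.0 CPM in pMx docetaxel cultures, against 1648, 1687 and 1782 CPM in pMx DMSO cultures. Δβ3 docetaxel culture 2 alone lay below the DMSO cultures of its line. The mean change was 0.42 ± 0.10 (adjusted p = 0.00751). Ctsl had 0.22 ± 0.15 over 18 libraries (adjusted p = 0.351) and was called over 16, at 0.34 ± 0.04 (adjusted p = 9.28e-07). Tpp1, tripeptidyl peptidase 1, rose by 0.57 ± 0.17 (adjusted p = 0.0347), a call lost in 11 of 18 fits without 1 library, with adjusted p up to 0.0761 without pMx docetaxel culture 3. Tpp1 had 8.08 CPM in Δβ3 docetaxel culture 2, against 3.99 and 5.02 CPM in its sisters. Ctsz, a carboxypeptidase, was called over 16 libraries at 0.15 ± 0.05, while Ctsa (which also protects Neu1 and Glb1 from breakdown), Ctsh and Ctsc were called in neither fit.

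Among 5 membrane proteins, Lamp2 and Laptm4a rose. Lamp2, a heavily glycosylated protein of the lysosomal membrane that also serves in autophagy, lies at chrX:38401357-38456454 on the minus strand. It had 352, 349 and 340.3 CPM in hβ3 docetaxel cultures, against 265, 183 and 262 CPM in hβ3 DMSO cultures. It had 465, 306 and 429 CPM in Δβ3 docetaxel cultures, against 140.2, 294 and 308 CPM in Δβ3 DMSO cultures. It had 449, 447 and 433 CPM in pMx docetaxel cultures, against 384, 351 and 309.6 CPM in pMx DMSO cultures. The groups did not overlap in hβ3 or pMx, and in Δβ3 they overlapped by the docetaxel culture rich in heart transcripts. The mean change was 0.53 ± 0.13 (adjusted p = 0.0117). One model of 3614 bases held 84.2% to 84.8% of Lamp2 counts in each group. Laptm4a rose by 0.32 ± 0.09 (adjusted p = 0.0249), which was lost in 6 of 18 fits without 1 library, with adjusted p up to 0.0646 without hβ3 docetaxel culture 2. Cln3, a membrane protein mutated in juvenile Batten disease, was called over 16 libraries alone at 0.69 ± 0.25. Mcoln1, the calcium channel of the lysosomal membrane, had 0.03 ± 0.08 (adjusted p = 0.865).

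Grn, the precursor of granulins, which a sorting receptor carries to the lysosome, lies at chr11:102430315-102437048 on the plus strand. It had 986, 903 and 912 CPM in hβ3 docetaxel cultures, against 634, 626 and 665 CPM in hβ3 DMSO cultures. It had 1540.4, 579.6 and 1389.7 CPM in Δβ3 docetaxel cultures, against 914, 1048 and 973 CPM in Δβ3 DMSO cultures. It had 1383, 1375 and 1397 CPM in pMx docetaxel cultures, against 844, 846 and 933 CPM in pMx DMSO cultures. Again Δβ3 docetaxel culture 2 alone lay below the DMSO cultures of its line. The mean change was 0.49 ± 0.13 over 18 libraries (adjusted p = 0.0183) and 0.59 ± 0.04 over 16 (adjusted p = 3.22e-11). Tfeb itself had 1.03 to 2.80 CPM outside hβ3 and 0.78 to 1.57 CPM in hβ3, and its change was 0.31 ± 0.20 (adjusted p = 0.348).

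Over 16 libraries the mean change of the genes given by culture was 0.77 ± 0.08 for Gm2a, 0.65 ± 0.07 for Manba, 0.54 ± 0.05 for Gla, 0.50 ± 0.07 for Lamp2, 0.49 ± 0.04 for Ctsb, 0.41 ± 0.05 for Man2b1 and 0.38 ± 0.06 for Arsa, and all of these were called.

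**Figure D3:**
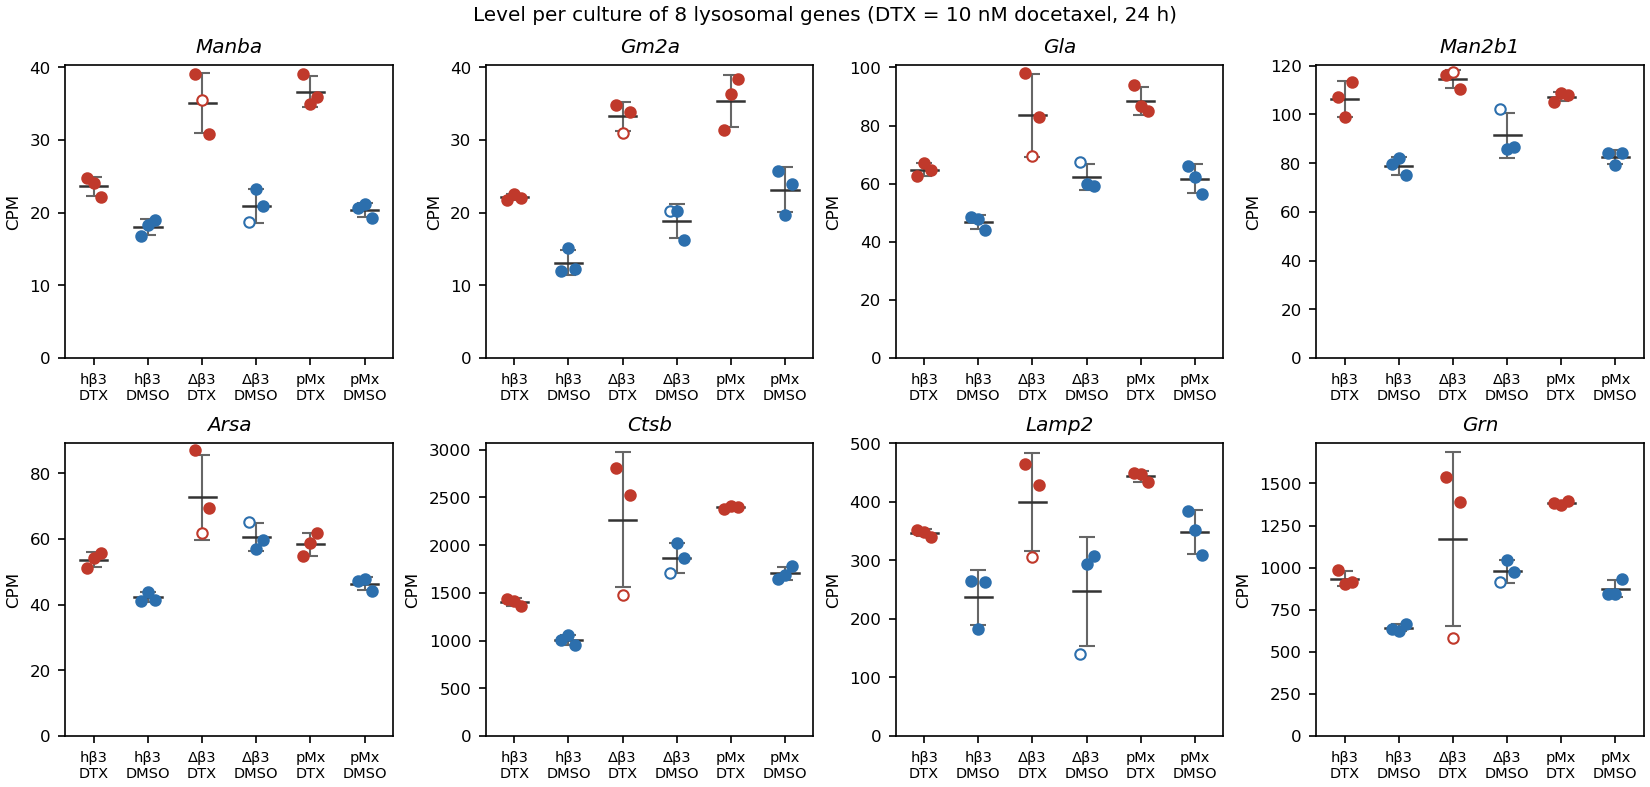
CPM (y axis, linear from 0) of 8 lysosomal genes in the 6 groups, docetaxel (DTX, red) left of DMSO (blue) for each line. Points are cultures, bars are the mean and SD of 3 cultures, and open circles mark the 2 cultures rich in heart transcripts. In hβ3 and pMx no docetaxel culture of these genes overlaps the DMSO cultures. The 8 genes had the smallest p among those called in docetaxel in these same cultures, so this separation is no added evidence.

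Within single lines fewer calls were made over 18 libraries. The spread was estimated over all 6 groups, so the Δβ3 cultures rich in heart transcripts also entered the p-values in hβ3 and pMx. In hβ3 cells 1 gene was higher in docetaxel and none lower (0.922% of all tested genes higher, 0.239% lower): Gm2a, by 0.75 ± 0.16 (adjusted p = 0.0221). That call was lost when any 1 of 5 hβ3 cultures was left out, with adjusted p up to 0.136 without hβ3 DMSO culture 1. In Δβ3 cells 2 were higher and none lower (3.33% higher, 3.53% lower): Manba by 0.75 ± 0.14 (adjusted p = 0.00509) and Gm2a by 0.82 ± 0.16 (adjusted p = 0.00625). Both remained called without any 1 library, but with only the Δβ3 cultures in the fit both calls ended (adjusted p = 0.584 for Manba and 0.565 for Gm2a). In pMx cells 3 were higher and none lower (1.92% higher, 1.7% lower): Manba by 0.85 ± 0.14 (adjusted p = 0.0022), Gla by 0.52 ± 0.13 (adjusted p = 0.0323) and Gm2a by 0.61 ± 0.16 (adjusted p = 0.0353). Gla was lost in 9 and Gm2a in 10 of 18 fits without 1 library. The medians of the 32 genes were 0.30 in hβ3, 0.23 in Δβ3 and 0.34 in pMx, against 0.00, 0.11 and 0.00 for all tested genes.

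Over 16 libraries the calls in docetaxel were 13 higher in hβ3, 12 in Δβ3 and 16 in pMx, with none lower. Of all tested genes, 7.28% were higher and 5.17% lower in hβ3, 5.98% and 5.28% in Δβ3, and 10.3% and 11% in pMx. The same 11 genes were higher in all 3 lines: Arsa, Ctsb, Ctsl, Fuca1, Gla, Gm2a, Grn, Lamp2, Man2b1, Manba and Npc2. Of all tested genes, 3.29% were higher in all 3 lines. For Ctsb the changes were 0.50 ± 0.06 in hβ3, 0.46 ± 0.08 in Δβ3 and 0.50 ± 0.06 in pMx. For Grn they were 0.56 ± 0.06, 0.54 ± 0.08 and 0.67 ± 0.06 in the same order. Hexa and Laptm4a completed the hβ3 calls, and Sgsh completed those in Δβ3. In pMx, Arsb, Galc, Hexa, Ids and Sgsh were added.

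**Figure D4:**
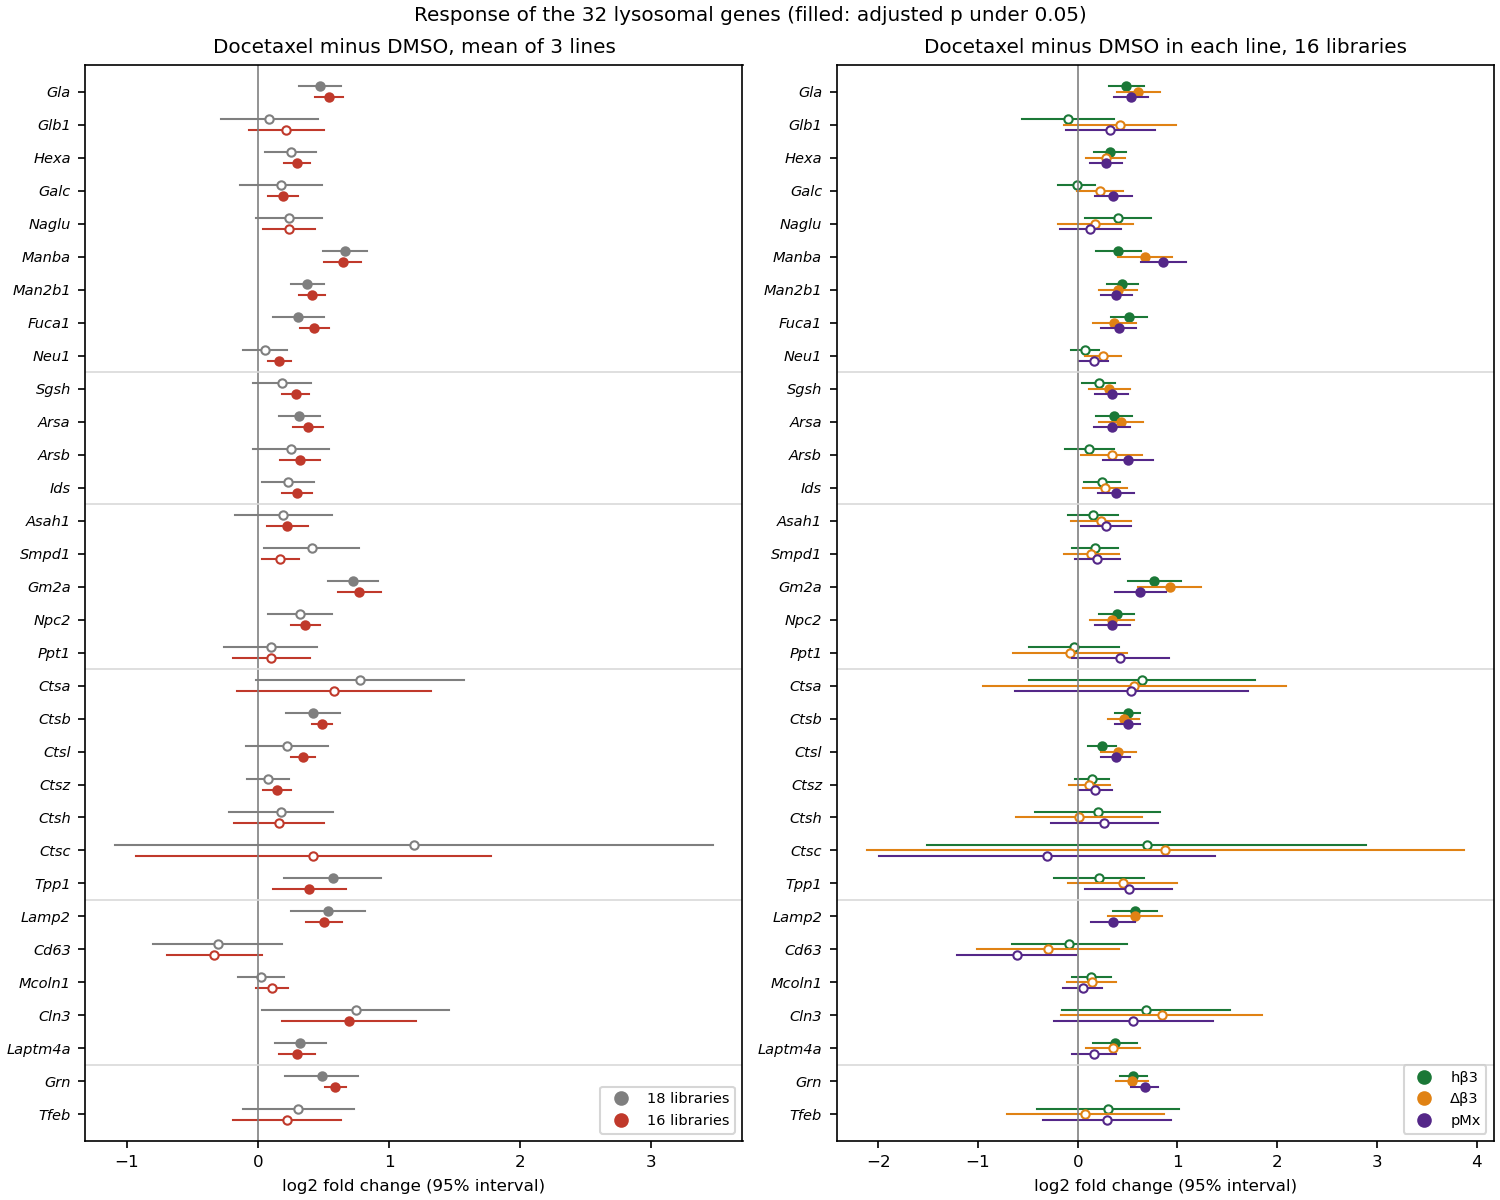
Log2 fold change, docetaxel minus DMSO, with 95% intervals for the 32 lysosomal genes, ordered by role (grey lines part the classes). The left panel gives the mean of 3 lines over 18 (grey) and 16 libraries (red), and the right panel gives hβ3, Δβ3 and pMx over 16 libraries; filled points have an adjusted p under 0.05, and all 11 and 22 filled points of the left panel lie above 0.

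The response was then compared between lines. None of the 32 genes was called in any of the 3 differences, over 18 or 16 libraries, and DESeq2 called none either. Over all tested genes, 0.0165% were called for hβ3 minus pMx, 0.0412% for hβ3 minus Δβ3 and 0 for Δβ3 minus pMx over 18 libraries. Over 16 libraries the shares were 2.3%, 0.591% and 0 in the same order. At an unadjusted p under 0.05, for which no share of all tested genes is given, there were 1, 0 and 0 lysosomal genes over 18 libraries. Over 16 libraries there were 3, 0 and 0. The gene over 18 libraries was Manba, whose response in hβ3 minus that in pMx was -0.46 (95% interval -0.87 to -0.05, adjusted p = 1). Over 16 libraries Manba had -0.45 (interval -0.77 to -0.14, adjusted p = 0.131), and Galc and Arsb had adjusted p of 0.143 and 0.259. For Gla the same difference was -0.06 (interval -0.44 to 0.33), and for Gm2a it was 0.14 (interval -0.32 to 0.60). Over 16 libraries the interval for Ctsb was -0.18 to 0.18.

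The lines themselves differed in DMSO. Against either other line, the lysosomal genes called over 18 libraries were all lower in hβ3 cells. Cathepsins B and H, Naglu and Gm2a were called against both. Summed over the 32 genes, the level was 6018 to 6308 CPM in hβ3 DMSO cultures and 8406 to 9764 CPM in Δβ3 DMSO cultures. In pMx DMSO cultures it was 8105 to 8535 CPM, so the hβ3 sums lay below those of both other lines. In docetaxel the sum was 7575 to 8006 CPM in hβ3, 6405 to 13118 CPM in Δβ3 and 10295 to 11580 CPM in pMx. Ctsl, Ctsb and Grn made up 62.2% to 63.0% of the sum in hβ3 DMSO cultures. Their share was 72.3% to 74.8% in Δβ3 DMSO and 68.8% to 70.7% in pMx DMSO cultures, and 59.9% to 73.8% in docetaxel. The sums therefore mainly follow these genes, and their separation need not hold for the rest of the 32.

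For hβ3 against pMx in DMSO, 4 genes were lower and none higher over 18 libraries (4.13% of all tested genes lower, 4.88% higher). Gm2a had 12.0 to 15.1 CPM in hβ3 and 19.7 to 25.7 CPM in pMx, a difference of -0.82 ± 0.16 (adjusted p = 0.00248). Naglu, at chr11:101070012-101077672 on the plus strand, had 4.43, 5.02 and 4.33 CPM in hβ3, against 8.40, 8.79 and 9.41 CPM in pMx. The groups were far apart, and the difference was -0.95 ± 0.21 (adjusted p = 0.007). Ctsb had -0.76 ± 0.17 (adjusted p = 0.00771), with no overlap between the cultures. Ctsh, the aminopeptidase cathepsin H at chr9:90054152-90076089 on the plus strand, had 1.25, 2.05 and 1.06 CPM in hβ3, against 2.16, 3.18 and 4.19 CPM in pMx. Its difference was -1.13 ± 0.33 (adjusted p = 0.0411), and it was lost in 13 of 18 fits without 1 library, with an adjusted p of 0.215 when pMx DMSO culture 3 was left out. Over 16 libraries 13 genes were lower and 5 higher in hβ3, beside 13.5% and 13.3% of all tested genes. The 5 higher were Npc2, Ppt1 (the thioesterase that removes palmitate from proteins), Ids, Galc and Neu1, by 0.21 to 0.81.

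For hβ3 against Δβ3 in DMSO, 8 genes were lower and none higher over 18 libraries (6.86% lower, 6.27% higher). Ctsb had 1002, 1061 and 956 CPM in hβ3, against 1706, 2019 and 1869 CPM in Δβ3, a difference of -0.89 ± 0.17 (adjusted p = 0.00192). Fuca1, at chr4:135920735-135940311 on the plus strand, had 53.6, 51.1 and 57.6 CPM in hβ3, against 115, 85.0 and 74.3 CPM in Δβ3. The highest of these was Δβ3 DMSO culture 1, and the difference was -0.75 ± 0.16 (adjusted p = 0.00366) with it and -0.57 ± 0.10 over 16 libraries. Ctsh had 1.25, 2.05 and 1.06 CPM in hβ3, against 2.66, 5.20 and 3.98 CPM in Δβ3, a difference of -1.44 ± 0.33 (adjusted p = 0.00765). Arsa had -0.52 ± 0.13 (adjusted p = 0.0122), with no overlap between cultures. These 4 remained called without any 1 library. Naglu, Gm2a and Gla had -0.84, -0.52 and -0.41, with adjusted p of 0.0123, 0.0357 and 0.0457. Ctsl had -0.80 and lay at the threshold of 0.05. Leaving out 1 library ended the call of Gla in 16 of 18 fits, that of Gm2a in 11 and that of Naglu in 2, with adjusted p up to 0.128, 0.129 and 0.0549; all 3 were called over 16 libraries. Over 16 libraries 15 were lower and 2, Ids and Galc, higher, beside 12.2% and 11.1% of all tested genes.

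**Figure D5:**
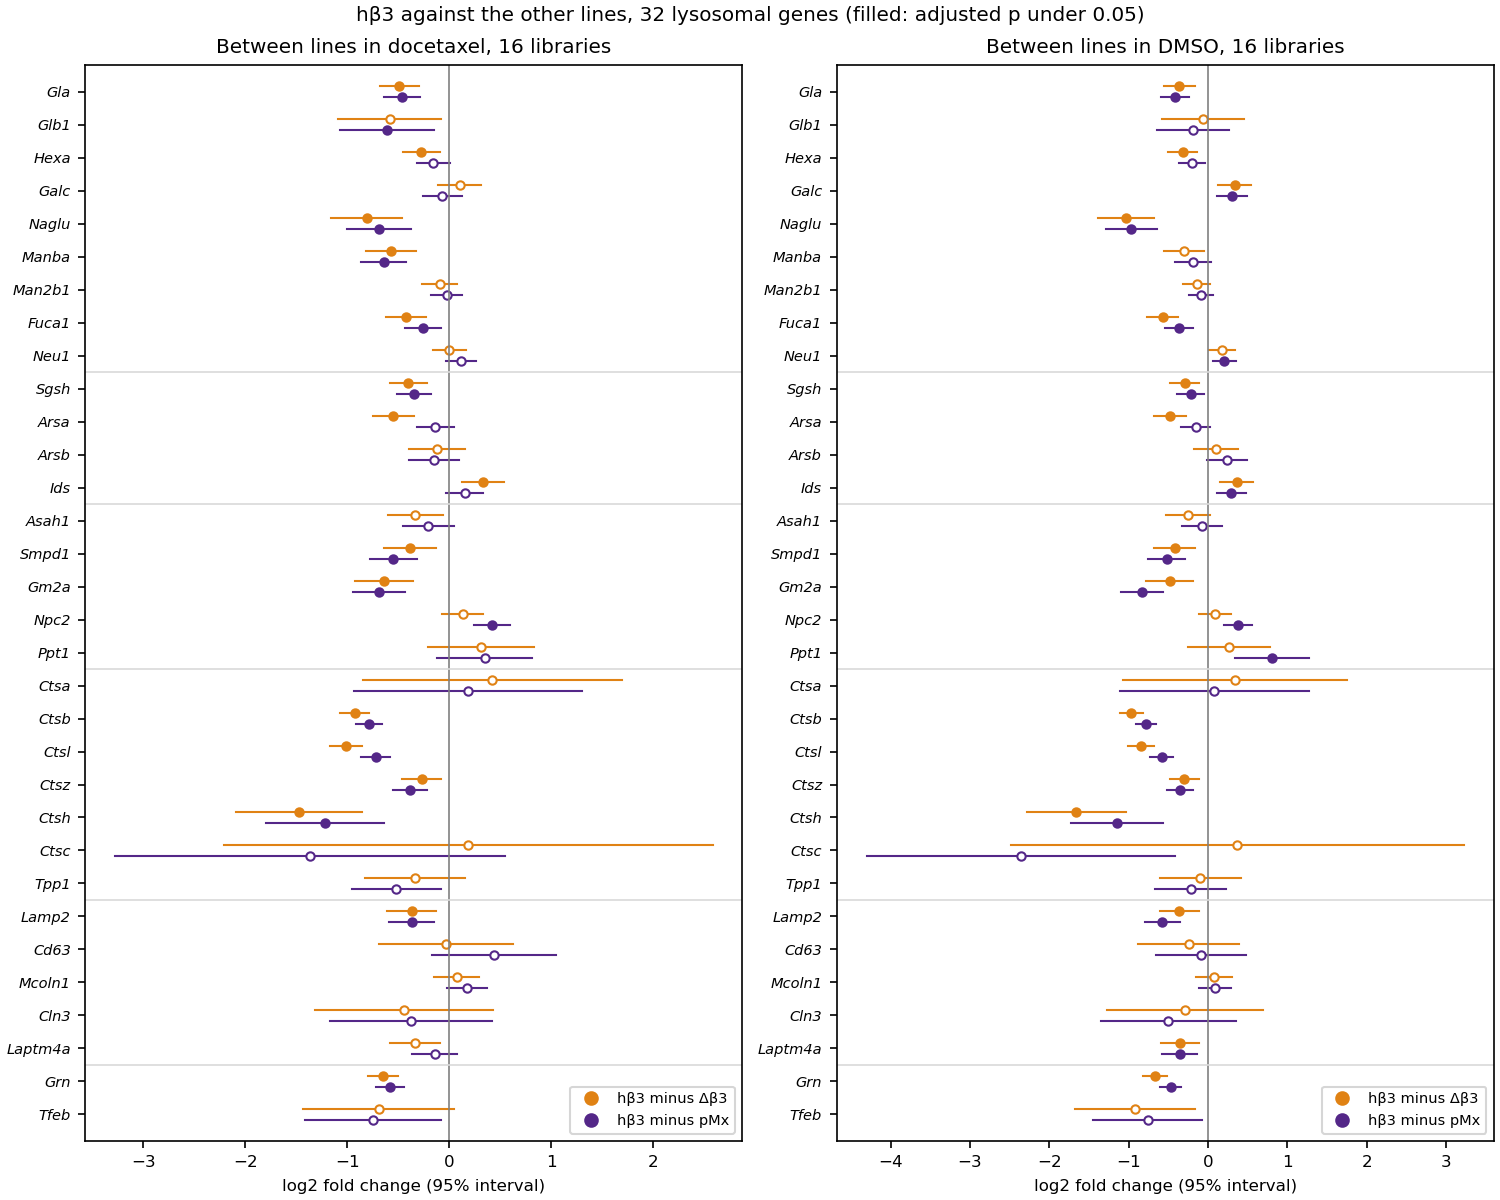
Log2 difference with 95% interval of hβ3 minus Δβ3 (orange) and hβ3 minus pMx (violet) for the 32 lysosomal genes over 16 libraries, in docetaxel (left) and DMSO (right). Filled points have an adjusted p under 0.05; in DMSO 15 filled orange points lie below 0 and 2 above it, and 13 filled violet points lie below and 5 above.

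Between Δβ3 and pMx no lysosomal gene was called in DMSO or in docetaxel over 18 or 16 libraries, where 0.0412% and 0.332% of all tested genes were called in DMSO and 0.0247% and 0.453% in docetaxel. At an unadjusted p under 0.05 there were 3 genes in DMSO over 18 libraries and 9 over 16, and 3 and 4 in docetaxel, and DESeq2 called none. The share of all tested genes at that unadjusted threshold is not given here, so these counts are not read as differences. The interval for Ctsb in DMSO over 16 libraries was 0.04 to 0.32 and that for Gm2a was -0.64 to -0.05.

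The lines were also compared in docetaxel. For hβ3 against pMx, 5 genes were lower and none higher over 18 libraries, beside 3.83% lower and 4.63% higher of all tested genes. Over 16 libraries 14 were lower and 1, Npc2, higher, beside 12.2% and 15.2%. The 5 were Ctsb, Ctsh, Gla, Gm2a and Manba, at -0.77, -1.21, -0.45, -0.68 and -0.63, and Ctsb alone kept its call without any 1 library. For hβ3 against Δβ3, 6 were lower (Arsa, Ctsb, Ctsh, Gm2a, Manba and Smpd1) and 1 higher (Ids, iduronate-2-sulfatase), beside 5.69% and 4.38% of all tested genes. Without hβ3 docetaxel culture 2 or 3 none of these 7 was called, and without culture 1 there was 1. Smpd1 had -1.09 ± 0.30 over 18 libraries and -0.38 ± 0.12 over 16 (adjusted p = 0.0264), and leaving out Δβ3 docetaxel culture 2 alone ended its call (adjusted p = 0.116). Over 16 libraries 15 were lower and 1, again Ids, was higher, beside 10.3% and 9.6%.

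Comparisons that share no library were then set side by side: hβ3 against Δβ3 in DMSO, and docetaxel against DMSO in pMx cells. Over 18 libraries 8 lysosomal genes were lower in hβ3 and 3 higher in pMx docetaxel, and Gla and Gm2a were in both lists, beside 92 of all tested genes (0.758%). Over 16 libraries, of the 15 lysosomal genes lower in hβ3 and the 16 higher in pMx docetaxel, 10 were in both lists: Arsa, Ctsb, Ctsl, Fuca1, Gla, Gm2a, Grn, Hexa, Lamp2 and Sgsh. Over all tested genes 1507 were lower in hβ3 and 1267 higher in pMx docetaxel, and 469 were in both, or 3.8% of all tested. The mirror pair, hβ3 against pMx in DMSO and docetaxel in Δβ3 cells, had Gm2a alone in both lists of 4 and 2 over 18 libraries, beside 88 of all tested genes (0.725%). Over 16 libraries it had 8 of 13 and 12 in both, beside 362 of all tested genes (2.93%).

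The windows before the RefSeq gene starts were read for the element of Tfeb and its relatives, since many members moved together. In RefSeq (GRCm38.p6), 35 of the 38 genes had a promoter, and 11 of them (31.4%) held CACGTG, which is its own reverse complement, in the 250 bases before the start. Of 27025 genes, 6.86% did. Many of these genes are known targets of Tfeb and its relatives, so this share describes the list and is not a result of these cultures. The longer TCACGTGA, which contains it, was in 5 of 35 (14.3%) and in 0.907% of all genes. Below are 6 windows with the element and, for contrast, those of Manba and Gm2a, whose mean docetaxel changes were the largest called over 18 libraries and which lack it in all 250 bases. Over 16 libraries Cln3, which holds both motifs, was called at 0.69 ± 0.25, above Manba at 0.65 ± 0.07. Capitals mark CACGTG, and each line gives 5′ to 3′ on the strand of the gene.
Gla (chrX:134601176-134601245, minus): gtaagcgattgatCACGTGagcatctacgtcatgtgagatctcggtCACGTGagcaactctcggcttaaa
Mcoln1 (chr8:3500429-3500498, plus): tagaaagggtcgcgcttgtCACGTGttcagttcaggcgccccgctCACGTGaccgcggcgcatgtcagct
Naglu (chr11:101069994-101070053, plus): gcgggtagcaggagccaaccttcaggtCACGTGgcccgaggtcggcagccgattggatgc
Glb1 (chr9:114400998-114401057, plus): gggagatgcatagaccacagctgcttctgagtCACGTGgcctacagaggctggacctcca
Sgsh (chr11:119355511-119355570, minus): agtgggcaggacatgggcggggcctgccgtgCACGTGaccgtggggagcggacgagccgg
Arsa (chr15:89477425-89477484, minus): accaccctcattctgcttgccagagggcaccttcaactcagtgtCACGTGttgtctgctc
Manba (chr3:135485551-135485610, plus): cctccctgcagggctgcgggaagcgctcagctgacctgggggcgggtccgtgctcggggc
Gm2a (chr11:55097925-55097984, plus): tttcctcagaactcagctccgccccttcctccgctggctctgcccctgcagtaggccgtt

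The first base of the element lay at -227 and -194 from the start for Gla, at -71 and -45 for Mcoln1 and at -16 for Arsa. These starts differ from the GENCODE starts of the gene coordinates given above by 130 bases for Gm2a, 120 for Gla, 82 for Naglu, 62 for Mcoln1 and 26 for Sgsh. By the GENCODE start, the element of Naglu and the one at -45 of Mcoln1 lie inside the gene. Of the 9 kept genes with CACGTG, 2 rose over 18 libraries (Gla and Arsa) and 5 over 16, with median changes of 0.24 and 0.34. Of the 20 kept genes without it, 8 rose over 18 libraries and 15 over 16, with medians of 0.31 and 0.31. Both sets hold genes with low counts, such as Ctsa and Cln3 with the element (median counts of 11.5 and 13.5). Ctsc and Tfeb, without it, had 9.5 and 21.5. The sets were not matched for read depth, which limits the calls, and the part of the element was not tested. Mcoln1, with 2 copies, had 0.03 ± 0.08. A match is a run of letters in a window, and binding was not measured.

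Other genes of the lysosome were read from lists. Over all tested genes, 7.9% rose in the mean response over 18 libraries and 15.8% over 16. Of 19 other hydrolases tested, 4 rose in the mean response and none fell, among them Ctso (a cathepsin, 1.00 ± 0.11), Man2b2 (a mannosidase, 0.61 ± 0.11) and Acp2 (an acid phosphatase). Of 16 other membrane proteins 6 rose, among them Cd68 (also a macrophage marker) at 1.22 ± 0.20, Tmem106b at 0.49 ± 0.09 and Scarb2, which carries glucocerebrosidase to the lysosome, at 0.59 ± 0.11. Of 15 V-ATPase subunits 4 rose, with Atp6v0d1 at 0.39 ± 0.09. The share that rose was near that of all tested genes for sorting genes and regulators. Of 9 sorting genes Igf2r alone rose, the receptor for mannose 6-phosphate, by 0.57 ± 0.08. Of 21 autophagy genes 8 rose, including Map1lc3b, which coats autophagosomes, at 0.59 ± 0.06. Among 17 regulators Fnip2 and Fnip1, partners of folliculin, rose by 0.59 ± 0.10 and 0.42 ± 0.08, while Tfe3 had 0.09 ± 0.27 and Mitf -0.13 ± 0.41. None of these 6 lists had a gene that fell over 18 libraries. Over 16 libraries the counts were 8, 8, 7, 2, 3 and 10 for hydrolases, membrane proteins, V-ATPase, sorting, regulators and autophagy, and 1 regulator, Lamtor1, fell by 0.16.

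Markers of leukocytes, which are rich in lysosomes, were read in the same libraries. Their 16 genes summed to 55.3 to 64.7 CPM in docetaxel and 38.2 to 50.8 CPM in DMSO over 16 libraries. Most of the sum was Cd14, and without Cd14 and Cd68 it was 4.30 to 16.2 CPM in docetaxel and 4.06 to 18.3 CPM in DMSO. Ptprc, which marks all leukocytes, did not pass 0.2 CPM in any library, and Adgre1 and Fcgr3 were at 0. In the cultures left out, the 16 genes summed to 352 CPM (Δβ3 docetaxel culture 2) and 89.2 CPM (Δβ3 DMSO culture 1). In Δβ3 docetaxel culture 2, Lyz2 had 174 CPM, Mrc1 112 CPM and Cd14 28.3 CPM. Tyrobp had 13.2, Fcer1g 4.66, Cx3cr1 3.73 and Csf1r 2.80 CPM there, while Ptprc, Adgre1, Fcgr3 and Aif1 were at 0. Low values of Ptprc, Adgre1 and Fcgr3 therefore do not show that leukocytes were absent. Cd68, left out of the second sum, was itself among the genes that rose in docetaxel. Over the 16 libraries Lyz2 had up to 9.95 CPM and Mrc1 up to 6.17 CPM.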

How the data were processed

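RNA was measured in 18 cultures by single-read sequencing. The authors deposited raw read counts per transcript model, not normalized. Per the submitters' processing notes the tools were FastQC, HISAT2 and featureCounts with mm10; their versions, the annotation and the strand setting are not stated there. Per the labels, ribosomal RNA was removed and 13 PCR cycles were run. The deposited table also gives model length in bases, another unit, used here for levels per kilobase.

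Counts were summed per symbol (63759 models, 32699 symbols, 13170 with several models). edgeR 4.0.16 in R 4.3.3 fitted 1 coefficient per group over 18 libraries (filterByExpr, TMM, robust quasi-likelihood, two-sided, Benjamini-Hochberg adjustment over all tested genes). Steps were tested on simulated data. SE is the log2 change divided by the root of F. The 16-library fit was a listed alternative, as were DESeq2 1.42.0, other scaling, filters, single models and leaving out each library. Printed in full were the 8 members with the smallest p among those called in docetaxel and the 4 with the smallest p in each pair of lines in DMSO; other members are given by change or range, and up to 3 called genes per other list by smallest p. The remaining called gene of the other hydrolases is not reported here. Acp2, Tfe3, Mitf, Lamtor1 and the markers were named after their values were seen. Members and lists were chosen with earlier results of these data known, so a rise of lysosomal genes here is not independent of them. Pathway lists were read by counts, with no set test. Replicates are described as biological. In the fits over 18 or 16 libraries, p-values rest on a spread between cultures estimated over all 6 groups, not within 1 line. Over 18 libraries, p-values in hβ3 and pMx therefore also carry the spread of the 2 Δβ3 cultures rich in heart transcripts. No 2 libraries of a group agreed within sampling noise. Gene coordinates are from GENCODE M21 (mm10). Each library's depth limits the precision, and intervals cover the model's error only.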

Additional observations from a re-analysis of the deposited data

How the results depend on the processing

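Among changes called over 18 or 16 libraries, each fit that called one gave it the direction it had over 18 libraries. Of 416 changes (32 genes in 13 comparisons), 53 had another sign over 16 libraries and none of these was called in either fit; 16 were in Δβ3 against pMx in docetaxel, where the median was 0.06 over 16 libraries and -0.06 over 18. Leaving out 1 library turned the sign of 6 changes that were not called over 18 libraries: in Δβ3 docetaxel Sgsh ranged from -0.17 to 0.28, Fuca1 from -0.10 to 0.25 and Ctsl from -0.18 to 0.43, and for hβ3 against Δβ3 Lamp2 ranged from -0.36 to 0.13 in DMSO, and Hexa from -0.27 to 0.070 and Sgsh from -0.40 to 0.061 in docetaxel. The cause of the changes in counts was not tested unless named. Shares of all tested genes are given above for the 18-library and 16-library fits alone. Counts from the other fits have no such share beside them and show only how the calls depend on the fit. Leaving out the 2 libraries rich in heart transcripts gave 22 called lysosomal genes for the mean docetaxel response, 13 in hβ3, 12 in Δβ3 and 16 in pMx, against 11, 1, 2 and 3; hβ3 against pMx gave 18 in DMSO and 15 in docetaxel, and hβ3 against Δβ3 17 and 16, against 4, 5, 8 and 7. With that change the biological coefficient of variation was 13.2%, against 36.06%. Fitting only the groups compared gave 13 in hβ3, 0 in Δβ3 and 17 in pMx, then 17 and 15 for hβ3 against pMx in DMSO and docetaxel, and 3 and 0 for hβ3 against Δβ3. DESeq2 gave 5, 8 and 7 for the 3 lines and 8 for hβ3 against pMx in docetaxel. With no filter the counts were 0 in hβ3, 1 in pMx, 5 for hβ3 against Δβ3 in DMSO, and 3 and 3 for hβ3 against pMx and against Δβ3 in docetaxel. Leaving out 1 library gave 8 to 17 for the mean response (17 without Δβ3 docetaxel culture 2), 0 to 6 in hβ3, 2 to 8 in Δβ3 and 1 to 10 in pMx. It gave 3 to 11 and 2 to 12 for hβ3 against pMx in DMSO and docetaxel, 4 to 13 and 0 to 10 for hβ3 against Δβ3, and 0 for the rest. The replicate numbers showed no consistent pairing over all groups: 18 of 45 pairs had a correlation over 0.1 (from -0.532 to 0.459). Between pMx docetaxel and pMx DMSO cultures of the same number the correlations were 0.363, -0.0746 and 0.352. A pairing within a line is therefore not excluded. With the replicate block 11 genes were called in the mean response and 2 in pMx. Low counts limit Ctsa, Ctsc, Cln3 and Tfeb.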
